A study of Mus musculus with 16 samples.

Results

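The imprinted genes that act on growth (H19, Igf2, Igf2r, Dlk1, Meg3, Peg3, Mest, Grb10, Cdkn1c and Plagl1) were described in endothelium sorted from liver and lung of adult mice. They are 10 of the 37991 gene entries in each deposited count table, found by their gene symbols, and they were chosen from knowledge of earlier results of these same libraries. Their levels and fold changes are therefore given as a description, with no p-value. RNA was sequenced from cells sorted for CD31, an endothelial adhesion molecule, in 16 libraries, 4 for each genotype, control and GOF, in each tissue. Control mice were Rosa-Bcat-GOF/+, which carry an activatable, stabilised beta-catenin allele but no Cre. GOF (gain-of-function) mice were Rosa-Bcat-GOF/+; VE-Cadherin-CreERT2, in which a tamoxifen-responsive Cre under the VE-cadherin promoter can switch that allele on in endothelium. The mice are described only as adult, the labels state no tamoxifen schedule, and effects of activated beta-catenin and of the Cre transgene cannot be told apart.

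Imprinted genes are transcribed mainly from the copy inherited from one parent, which is set by DNA methylation laid down in egg or sperm. In mouse, Igf2, Dlk1, Peg3, Mest and Plagl1 are expressed mainly from the paternal copy, and H19, Igf2r, Meg3, Grb10 and Cdkn1c mainly from the maternal copy in most tissues. Many are high in the fetus and are turned down after birth. These libraries count transcripts from both copies together, so parental origin was not measured.

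The H19 and Igf2 transcripts are also host genes of small RNAs, which are shown because the balance of H19 and Igf2 reads is one of the results. miR-675 lies in an exon of H19 and miR-483 in an intron of Igf2. Their mature sequences are from RefSeq (GRCm38.p6, minus strand), written 5′ to 3′ with the seed, bases 2 to 8, in capitals.
miR-675-5p, chr7:142577112-142577133: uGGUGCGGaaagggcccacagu
miR-675-3p, chr7:142577078-142577099: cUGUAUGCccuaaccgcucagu
miR-483-5p, chr7:142654968-142654989: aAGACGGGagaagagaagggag
miR-483-3p, chr7:142654932-142654952: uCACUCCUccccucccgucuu
The 4 seeds differ from one another, and none of these small RNAs was measured. The promoter of Igf2r, the gene whose liver groups did not overlap, is shown as the 250 bases before its start, with each CpG, the dinucleotide that methylation acts on, in capitals (RefSeq, GRCm38.p6, minus strand, chr17:12769707-12769956, 69.2% G or C).
Igf2r promoter: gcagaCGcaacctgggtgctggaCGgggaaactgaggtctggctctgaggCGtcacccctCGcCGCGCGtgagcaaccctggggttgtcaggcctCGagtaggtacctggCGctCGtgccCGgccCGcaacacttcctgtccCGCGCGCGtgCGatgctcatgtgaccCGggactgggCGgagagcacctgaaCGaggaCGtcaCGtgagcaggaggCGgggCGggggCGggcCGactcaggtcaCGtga
It holds 27 CpGs. The letters CTTTGAT and CTTTGTT, core matches of the TCF/LEF factors that beta-catenin binds, were searched on both strands from 250 bases before to 50 after each start, and were in 0 of the 15 promoters of 8 of these genes. Over all promoters of that length, 3066 of 32851 (9.33%) held one, and no promoter of H19 or Cdkn1c was used here.

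Total counts per library lay between 22815467 and 37127150. Levels are CPM (counts scaled to a library of fixed size), scaled by TMM over all 16 libraries, and each group is 4 libraries. The sum of 12 pan-endothelial markers lay between 13100 and 19103 CPM in every library, with no marker at 0 in any group. Liver libraries held 699 to 3622 CPM of 9 hepatocyte markers (of 10 listed) against 1.81 to 14.2 CPM in lung, and lung libraries held 1275 to 13127 CPM of 6 alveolar type 2 markers against 2.04 to 5.98 CPM in liver. Fewer cells of a type and less RNA per cell cannot be told apart in such bulk samples. Ctnnb1, which encodes beta-catenin, stood at 804 ± 86.9 CPM in liver control, 746 ± 69.4 in liver GOF, 683 ± 51.8 in lung control and 672 ± 71.7 in lung GOF (SD, n = 4 each), which does not check the labels. Libraries carry letters (in liver B, E, F, G; in lung B, E, F, D) that occur in both genotypes. Same-letter libraries deviated together, so genotypes were compared both without the letter (unpaired) and with it as a block (paired).

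At an adjusted p under 0.05, few genes differed by genotype without pairing. In liver 5 of 15555 tested genes passed (0.0321%) and in pairs 401 (2.58%). In lung 0 of 15641 passed (0%) by edgeR, though 341 had an unadjusted p under 0.05 and DESeq2 called 11, and in pairs 3 passed (0.0192%). The genotype effect differed between lung and liver for 1 of 17536 genes (0.00570%) and in pairs for 86 (0.490%). Lung control differed from liver control for 3940 of 15806 genes (24.9%). Of the 10 imprinted growth genes, 9 were tested in each comparison and Dlk1 was not. In liver 0 of them passed unpaired and 2 in pairs (Igf2r and H19), in lung 0 and 0, for the tissue difference of the effect 0 and 1 (Igf2r), and between control tissues 5. These counts stand beside the background shares and nothing is read from them, because the genes were chosen on these data. The median log2 fold change of the 9 was 0.28 in liver against -0.00 over all tested genes, and -0.08 in lung against 0.01.

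**Figure D1:**
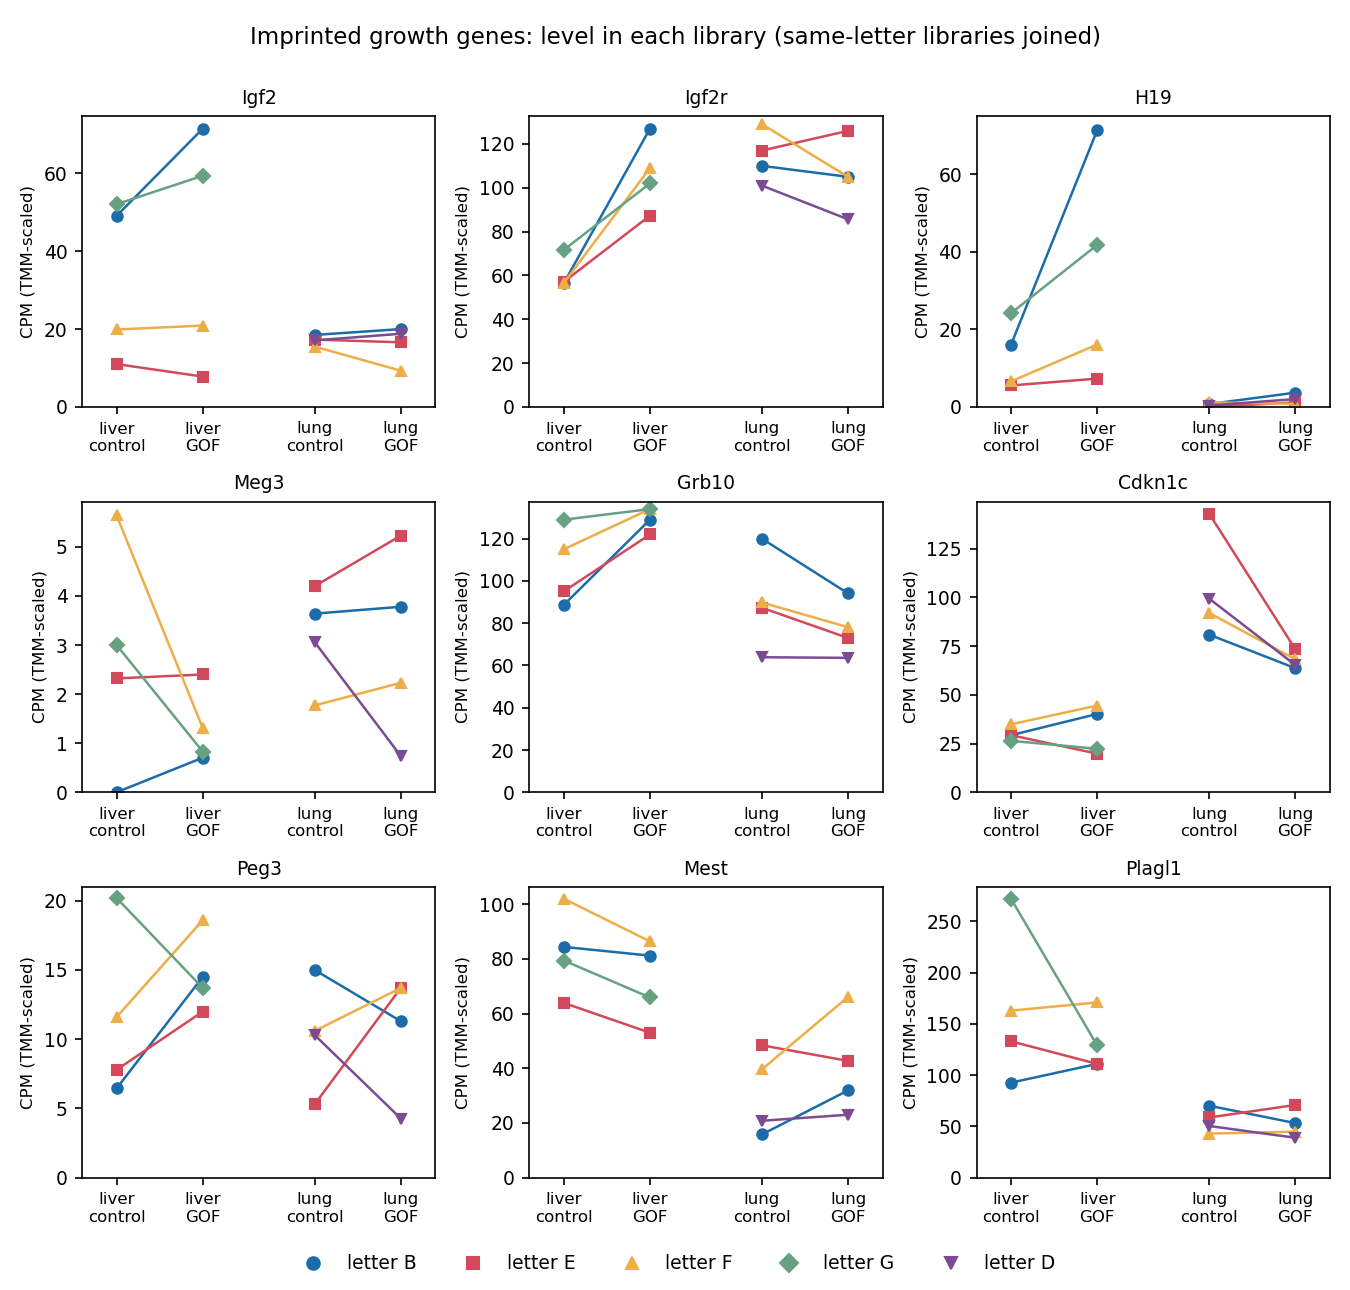
Level of 9 imprinted growth genes in each library, in CPM on linear axes that start at 0 and differ between genes. Lines join the control and GOF libraries of 1 letter. Igf2r separates liver GOF (87.3 to 127 CPM) from liver control (56.5 to 71.7 CPM), and Cdkn1c separates lung GOF (63.7 to 73.4 CPM) from lung control (80.9 to 143 CPM).

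Igf2 encodes insulin-like growth factor 2, a fetal growth factor, and in liver its level followed the replicate letter rather than the genotype. In liver control the libraries held 49.1 (B), 11 (E), 19.9 (F) and 52.1 CPM (G), and GOF libraries 71.5, 7.80, 20.9 and 59.4 CPM in the same order. Both B and both G libraries were high and both E and both F libraries low, and the genotype groups overlapped. The group means were 33.0 ± 20.7 and 39.9 ± 30.4 CPM (SD, n = 4 each), and the log2 fold change was 0.29 ± 0.644 (SE), or 0.10 ± 0.165 in pairs. Across alternatives it ranged between -0.15 and 0.62. In lung the control libraries lay close together at 18.5 (B), 17.3 (E), 15.5 (F) and 17.1 CPM (D), and GOF libraries held 20, 16.6, 9.31 and 18.8 CPM. Only lung GOF F stood apart, and the log2 fold change was -0.07 ± 0.26. The liver and lung groups overlapped, so the order of Igf2 by tissue is not beyond the spread of the liver libraries.

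Igf2r encodes the cation-independent mannose 6-phosphate receptor, which binds IGF2 and carries it to lysosomes for breakdown. All 4 liver GOF libraries held more Igf2r than all 4 liver controls, and the lung groups overlapped. Liver control libraries stood at 56.5 (B), 57.1 (E), 56.6 (F) and 71.7 CPM (G), and GOF libraries at 127, 87.3, 109 and 102 CPM. Within the letters GOF was 2.26-fold (B), 1.53-fold (E), 1.92-fold (F) and 1.42-fold (G) the control level. The means were 60.5 ± 7.49 and 106 ± 16.7 CPM, and the log2 fold change was 0.82 ± 0.147, or 0.81 ± 0.119 in pairs. Igf2r was 1 of 748 genes (4.81% of those tested) whose liver groups did not overlap. Its log2 fold change lay within 0.69 to 0.91 in 17 alternatives. In lung, control libraries stood at 110 (B), 117 (E), 129 (F) and 101 CPM (D) and GOF libraries at 105, 126, 105 and 85.6 CPM. Lung control, at 114 ± 11.6 CPM, was thus near liver GOF, and GOF was lower in 3 of 4 lung pairs, with a log2 fold change of -0.11 ± 0.162. The genotype effect in lung minus that in liver was -0.93 ± 0.213 on the log2 scale, or -0.93 ± 0.173 in pairs, and lay between -1.03 and -0.84 over 21 alternatives. Sums of the marker lists named for hepatic stellate cells (322 to 412 CPM in liver control, 257 to 368 in GOF), cholangiocytes (25.4 to 164 and 15.2 to 76.0 CPM), alveolar type 1 cells (6.47 to 13.6 and 5.26 to 6.92 CPM) and mitochondrially encoded transcripts (10218 to 19867 and 9650 to 17016 CPM) were lower in GOF in 4 of 4 liver pairs. The stellate and cholangiocyte lists also summed to 261 to 366 and 384 to 701 CPM in lung control, so they do not single out those liver cells. The alveolar type 1 list, at 1043 to 3051 CPM in lung control, is not read as cells of that type in liver. In liver control 1 of 7 stellate markers (Hhip) and 1 of 4 alveolar type 1 markers (Rtkn2) were at 0. The part of these sums in the Igf2r difference was not tested.

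Airn, a long noncoding RNA that starts inside Igf2r on the opposite strand and silences the paternal Igf2r copy in mouse, was higher beside Igf2r in all 4 liver GOF libraries. Airn stood in liver control at 2.99 (B), 4.59 (E), 1.88 (F) and 3.75 CPM (G) and in GOF at 11.6, 6.55, 11.9 and 8.61 CPM, with no overlap. The liver groups did not overlap for 4.81% of all tested genes. The log2 fold change was 1.55 ± 0.35, which did not pass edgeR's test (adjusted p = 0.231), and 1.58 ± 0.384 in pairs (adjusted p = 0.0565). DESeq2 called it at an adjusted p of 0.00661. In lung control Airn averaged 3.51 ± 0.782 CPM and in lung GOF 3.33 ± 0.639 CPM, with a log2 fold change of -0.07 ± 0.451 (adjusted p = 1). The genes share no annotated exon base in GENCODE M21, but Airn overlaps the Igf2r transcription unit and the library kit does not mark strand, so unspliced reads of both genes cannot be told apart. Igf2r reads per Airn read were 18.9 (B), 12.4 (E), 30.1 (F) and 19.1 (G) in liver control and 11, 13.3, 9.15 and 11.8 in liver GOF. The ratio was lower in GOF in pairs B, F and G and higher in E. In lung it lay between 25.7 and 49.0 in control and between 23.4 and 50.0 in GOF. Airn and this ratio were chosen after the values were seen, so the adjusted p-values of Airn are given as a description only.

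H19, a long noncoding RNA next to Igf2 that shares its enhancers, was higher in GOF in 4 of 4 liver pairs, though the liver groups overlapped. In liver control H19 stood at 16.1 (B), 5.54 (E), 6.60 (F) and 24.2 CPM (G), and in GOF at 71.4, 7.30, 16.1 and 41.8 CPM. GOF was 4.43-fold (B), 1.32-fold (E), 2.44-fold (F) and 1.72-fold (G) the control of the same letter, so the size differed widely between pairs. The means were 13.1 ± 8.80 and 34.2 ± 28.8 CPM, and the log2 fold change was 1.39 ± 0.663, or 1.17 ± 0.249 in pairs. Its log2 fold change spanned 0.75 to 1.87 over all alternatives. In lung H19 was near the limit of detection, with 63 reads over the 4 control libraries and 235 over the 4 GOF libraries. Lung control libraries held 0.744 (B), 0 (E), 1.19 (F) and 0.356 CPM (D), and GOF libraries 3.68, 1.16, 0.765 and 2.03 CPM. GOF was 4.95-fold the control in B, 5.70-fold in D, 0.640-fold in F, and in E it was higher at least 12.6-fold, taking 3 counts as the floor of the control library. The lung log2 fold change of 1.73 ± 1.24, or 2.43 ± 1.64 in pairs, depends on these few reads. Floors and counts cover counting error only. H19 was thus lower in every lung library (at most 3.68 CPM) than in every liver library (at least 5.54 CPM).

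H19 reads per Igf2 read separated the liver genotypes more cleanly than either gene did. The ratio was 0.328 (B), 0.505 (E), 0.332 (F) and 0.465 (G) in liver control and 0.999, 0.936, 0.769 and 0.703 in liver GOF. It was higher in GOF in 4 of 4 pairs and the groups did not overlap. In lung it was 0.0402 (B), 0 (E), 0.0771 (F) and 0.0207 (D) in control and 0.184, 0.0701, 0.0822 and 0.108 in GOF, higher in 4 of 4 pairs with overlapping groups. The ratio was chosen after the values were seen and carries no test. Igf2 shares 62.8% of its exon bases with the annotated gene Gm49394 on the same strand in GENCODE M21, so how reads were split there could move its level.

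**Figure D2:**
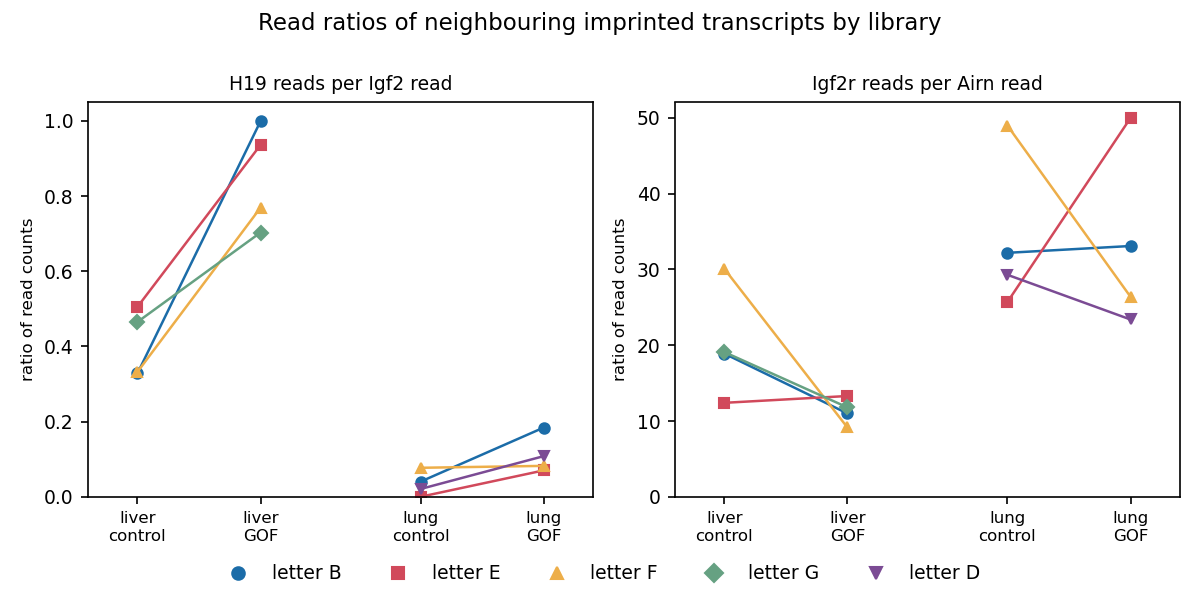
Ratio of read counts in each library, H19 per Igf2 (left) and Igf2r per Airn (right), on linear axes from 0, with same-letter libraries joined. H19 per Igf2 lies between 0.328 and 0.505 in liver control and between 0.703 and 0.999 in liver GOF, and Igf2r per Airn is lower in GOF in 3 of 4 liver pairs.

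The letters that were high in liver Igf2 were also those high in Xist, the noncoding RNA that coats the inactive X chromosome. Xist stood at 215 to 622 CPM in the B and G liver libraries and at no more than 1.07 CPM in E and F, while the Y-linked gene Ddx3y stood at 81.2 to 124 CPM in E and F and at no more than 0.125 CPM in B and G. The labels give no sex. Igf2 was at least 49.1 CPM in the B and G liver libraries and at most 20.9 CPM in E and F. H19 was at least 16.1 CPM in B and G, a level that GOF F, also at 16.1 CPM, all but reached. In lung, B and D were high in Xist (217 to 553 CPM), and Igf2 there spanned 17.1 to 20 CPM against 9.31 to 17.3 CPM in E and F. The part of this in the liver spread was not tested. The hepatocyte marker sum in liver was 3622 (B), 837 (E), 1833 (F) and 785 CPM (G) in control and 1745, 699, 1079 and 855 CPM in GOF, and its part was not tested either. The liver sinusoidal markers were highest in both E libraries, at 12031 and 11256 CPM against 3611 to 6803 CPM in the others.

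**Figure D3:**
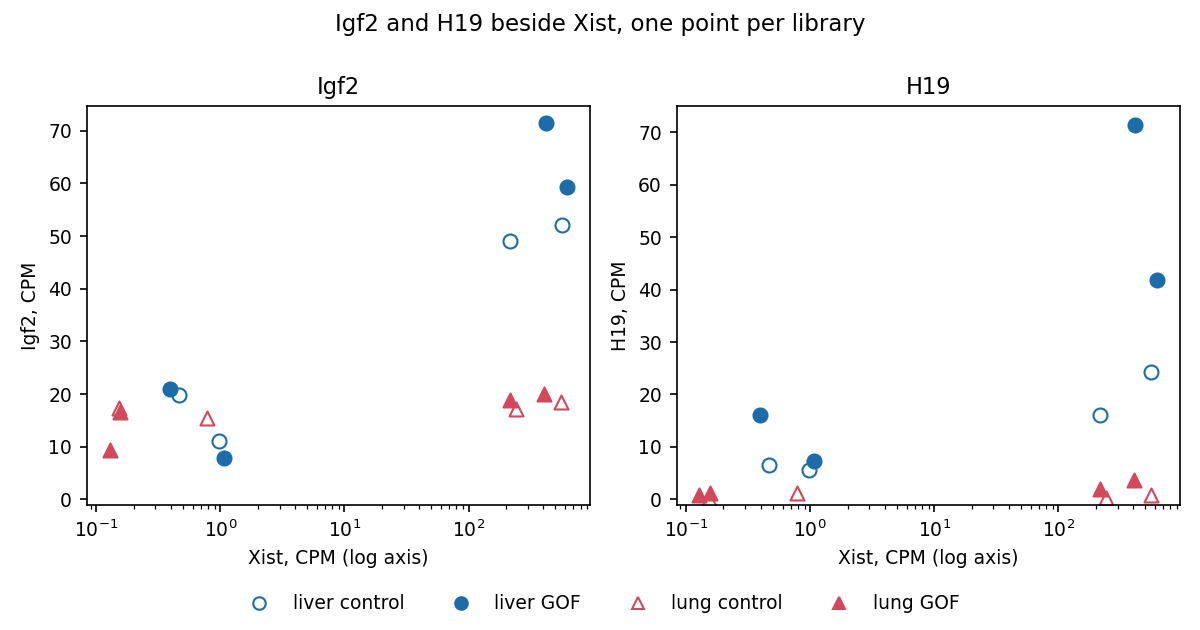
Level of Igf2 (left) and H19 (right) against Xist in the 16 libraries, in CPM, with Xist on a log axis. Circles are liver and triangles lung, open for control and filled for GOF; the 4 liver libraries with Xist at 215 CPM or more hold 49.1 to 71.5 CPM of Igf2, the other 4 hold 7.80 to 20.9 CPM.

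Dlk1, a membrane protein of the Notch ligand family that restrains differentiation, had 0 reads in all 16 libraries, out of 481666072 counted reads. A count of 0 allows up to 0.0802 to 0.125 CPM per library at a floor of 3 counts. Meg3, the maternally expressed long noncoding RNA of the same imprinted cluster, was low and varied between libraries. Liver control libraries held 0 (B), 2.32 (E), 5.64 (F) and 3 CPM (G), and GOF libraries 0.704, 2.40, 1.31 and 0.83 CPM. GOF was higher in 2 of 4 liver pairs and lower in the others, and the log2 fold change of -1.06 ± 1.10 became -0.34 ± 1.24 in pairs. With pair F or pair G left out it was 0.56 or 0.40, so its direction rested on those pairs. In lung control the libraries held 3.64 (B), 4.2 (E), 1.77 (F) and 3.06 CPM (D), and in GOF 3.78, 5.23, 2.23 and 0.738 CPM. GOF was higher in 3 of 4 lung pairs and lower in D, and the log2 fold change was -0.08 ± 0.63.

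Grb10 encodes an adaptor that binds and dampens the insulin and IGF1 receptors, and it leaned in opposite directions between the tissues. In liver control Grb10 stood at 88.7 (B), 95.1 (E), 115 (F) and 129 CPM (G), and in GOF at 129, 122, 134 and 134 CPM, higher in 4 of 4 pairs. Lung control libraries held 120 (B), 87.3 (E), 89.8 (F) and 63.9 CPM (D), and GOF libraries 94.1, 73.0, 78.1 and 63.6 CPM, lower in 4 of 4 pairs, in D by a ratio of 0.995. The groups overlapped in both tissues. The log2 fold change was 0.28 ± 0.142 in liver and -0.22 ± 0.204 in lung, or 0.30 ± 0.0995 and -0.20 ± 0.123 in pairs. The effect in lung minus that in liver was -0.50 ± 0.252, or -0.50 ± 0.15 in pairs.

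Cdkn1c encodes p57, a cyclin-dependent kinase inhibitor that holds cells out of the cycle. It was lower in all 4 lung GOF libraries than in all 4 lung controls, and in liver the groups overlapped. Lung control libraries held 80.9 (B), 143 (E), 92.0 (F) and 99.4 CPM (D), and GOF libraries 63.7, 73.4, 68.3 and 65.3 CPM. The controls were spread widely, at 104 ± 27.0 CPM, and the GOF libraries lay close together, at 67.7 ± 4.26 CPM. GOF was 0.787-fold, 0.515-fold, 0.742-fold and 0.658-fold the control of the same letter. The log2 fold change was -0.61 ± 0.187, or -0.58 ± 0.136 in pairs, lay between -0.71 and -0.42 over 17 alternatives. Cdkn1c was 1 of 317 genes (2.03% of those tested) whose lung groups did not overlap. The liver sinusoidal marker sum was lower in GOF in 4 of 4 lung pairs (1975 to 2683 CPM in control, 1687 to 2489 in GOF). The sums of the hepatic stellate and erythroid lists were higher in 4 of 4 (261 to 366 against 334 to 412 CPM, and 0.661 to 15.0 against 1.28 to 17.5 CPM). The stellate list summed to 322 to 412 CPM in liver control, so it does not single out hepatic stellate cells. The part of these sums in the Cdkn1c difference was not tested. In liver, control libraries held 29.3 (B), 29.3 (E), 34.9 (F) and 26.4 CPM (G), and GOF libraries 40.2, 19.8, 44.5 and 22.3 CPM. B and F were higher in GOF, E and G lower, and the log2 fold change was 0.08 ± 0.257. Of its exon bases, 30.7% overlap Gm44732 on the opposite strand in GENCODE M21, whose reads cannot be told apart without strand.

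Mest, a paternally expressed hydrolase-fold protein gene, was lower in GOF in 4 of 4 liver pairs and higher in 3 of 4 lung pairs. Mest in liver control stood at 84.4 (B), 63.9 (E), 102 (F) and 79.4 CPM (G), and in GOF at 81.2, 53.0, 86.4 and 65.9 CPM. Lung control libraries held 15.8 (B), 48.4 (E), 39.6 (F) and 20.8 CPM (D), and GOF libraries 31.9, 42.7, 66.1 and 23.0 CPM. The groups overlapped in both tissues, with log2 fold changes of -0.20 ± 0.186 in liver and 0.39 ± 0.38 in lung. Of its exon bases, 23.1% overlap Copg2 on the opposite strand in GENCODE M21.

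Plagl1 encodes a zinc-finger transcription factor that regulates a network of imprinted genes in mouse, and its liver controls were spread widely. Those libraries held 92.7 (B), 133 (E), 163 (F) and 272 CPM (G), and the GOF libraries 111, 111, 171 and 129 CPM. Control G stood highest, the groups overlapped, and the log2 fold change was -0.34 ± 0.292. Lung control libraries held 70.2 (B), 58.7 (E), 43.0 (F) and 50.4 CPM (D), and GOF libraries 53.2, 70.9, 44.8 and 38.9 CPM. GOF was higher in 2 of 4 pairs in each tissue, and the lung log2 fold change was -0.09 ± 0.219.

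Peg3, a paternally expressed zinc-finger protein gene, had overlapping genotype groups in both tissues. Liver control libraries held 6.45 (B), 7.79 (E), 11.6 (F) and 20.2 CPM (G), and GOF libraries 14.5, 12, 18.6 and 13.7 CPM. GOF was higher in B, E and F and lower in G, with a log2 fold change of 0.36 ± 0.338. Lung control libraries held 15.0 (B), 5.30 (E), 10.6 (F) and 10.3 CPM (D), and GOF libraries 11.3, 13.7, 13.7 and 4.27 CPM. GOF was higher in E and F and lower in B and D, with a log2 fold change of 0.07 ± 0.404.

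**Figure D4:**
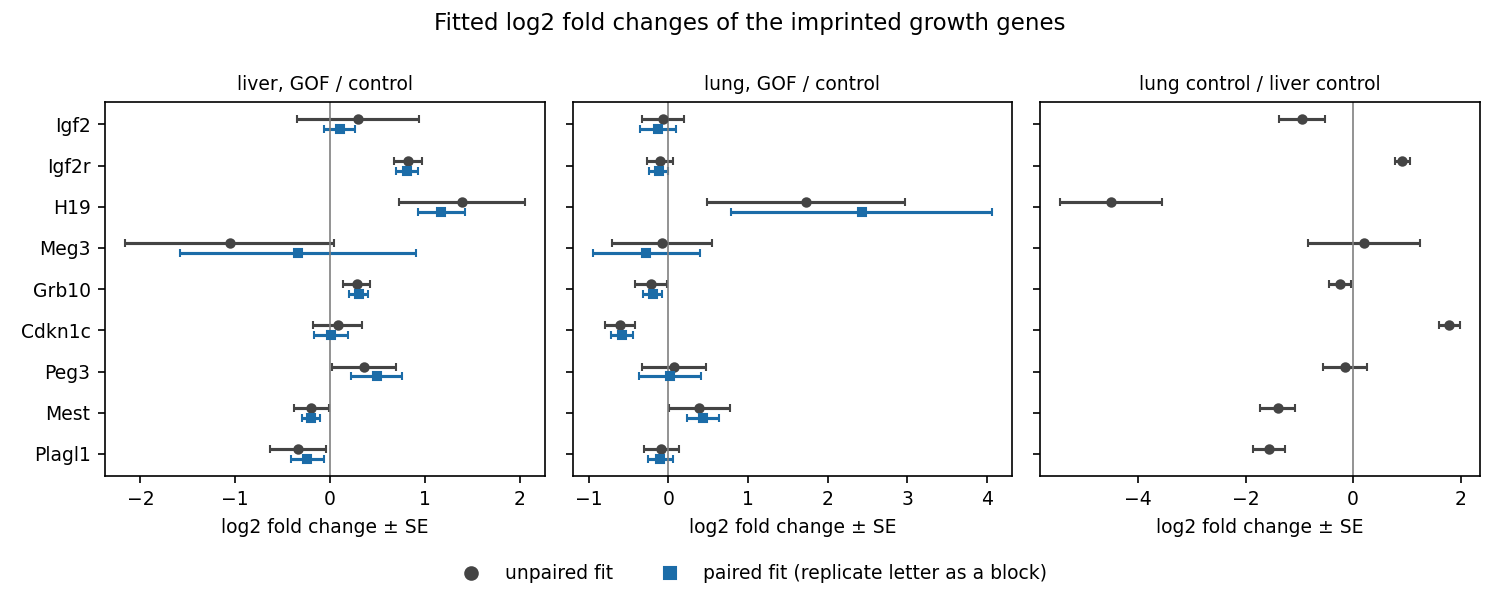
Fitted log2 fold change with its standard error for 9 imprinted growth genes, GOF over control in liver and in lung and lung control over liver control, with a different x axis in each panel. Circles are unpaired fits and squares are fits with the replicate letter as a block. Igf2r stands at 0.82 in liver and -0.11 in lung, and H19 has the widest error bars in lung, where it has few reads.

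Between the control tissues, the libraries of 5 of these genes did not overlap. Cdkn1c stood at 104 ± 27.0 CPM in lung control and 30.0 ± 3.57 CPM in liver control, a log2 fold change of 1.79 ± 0.196, and Igf2r was higher in lung by 0.92 ± 0.143. H19 was lower in lung, at 0.573 ± 0.513 against 13.1 ± 8.80 CPM, a log2 fold change of -4.51 ± 0.948. Plagl1 (-1.57 ± 0.302) and Mest (-1.40 ± 0.328) were also lower in lung, at 55.6 ± 11.7 against 165 ± 76.9 CPM and 31.2 ± 15.4 against 82.4 ± 15.6 CPM. Over all tested genes, 4797 (30.3%) did not overlap between the control tissues, and the imprinted growth genes were chosen on these data. Igf2 (-0.95 ± 0.42), Grb10 (-0.24 ± 0.203), Peg3 (-0.15 ± 0.417) and Meg3 (0.21 ± 1.04) overlapped between the tissues. The median over the 9 genes was -0.24 against -0.04 over all tested genes. The cells of other types in each sort differ between the tissues as given above, and their part in these differences was not tested.

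Per length of annotated exons (GENCODE M21, a GRCm38 annotation and not the authors' mm9 one), the order of levels differed between the tissues. In liver control Plagl1 (21.1 ± 9.84 CPM per kb), Mest (20.9 ± 3.96), Cdkn1c (14.7 ± 1.75) and Grb10 (11.8 ± 2.05) came first. Igf2r (6.50 ± 0.805), Igf2 (5.77 ± 3.61) and H19 (5.34 ± 3.58) followed within their spread of one another, with Peg3 at 0.862 ± 0.463 and Meg3 at 0.152 ± 0.128. In lung control Cdkn1c led at 50.8 ± 13.2 CPM per kb, beyond the spread of Igf2r at 12.3 ± 1.24 and Grb10 at 9.92 ± 2.52. Mest (7.90 ± 3.90) and Plagl1 (7.11 ± 1.49) came next within their spread, then Igf2 (2.99 ± 0.216), Peg3 (0.773 ± 0.296), H19 (0.233 ± 0.209) and Meg3 (0.175 ± 0.0573). In liver GOF H19 moved up to 13.9 ± 11.7 CPM per kb, a value whose spread covers the means of Mest, Plagl1, Cdkn1c, Grb10, Igf2r and Igf2.

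Among 47 other imprinted genes, 32 were tested in liver and 35 in lung, and none passed without pairing in either. In liver pairs 1 rose and 1 fell, against 2.58% called among all tested genes. Ppp1r9a, which encodes the actin-binding protein neurabin, averaged 13.4 ± 3.62 CPM in liver control and 23.0 ± 4.48 CPM in liver GOF (paired log2 fold change 0.81 ± 0.166, adjusted p = 0.0274). Dcn, the extracellular matrix proteoglycan decorin, stood at 120 ± 52.0 and 65.1 ± 31.4 CPM (-0.94 ± 0.217, adjusted p = 0.0463). The Ppp1r9a call was lost with any 1 of the 4 pairs left out, and the Dcn call held only with pair E left out. Fibroblasts also express Dcn, and the fibroblast marker sum was 180 to 1034 CPM in liver control and 61.0 to 494 CPM in liver GOF. It was higher in GOF in 2 of 4 pairs and lower in 2. The hepatic stellate marker sum, at 322 to 412 CPM in liver control and 257 to 368 CPM in liver GOF, was lower in 4 of 4 pairs. That list also summed to 261 to 366 CPM in lung control, so it does not single out stellate cells. The part of either sum in the Dcn difference was not tested. The paired median of the list was -0.08 in liver against 0.01 over all tested genes. In lung no other imprinted gene passed in pairs, and Cd81, the tetraspanin with the highest mean level of the list, averaged 215 ± 50.1 CPM in lung control and 214 ± 30.4 CPM in lung GOF.

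Of 18 genes of the IGF axis (ligands, receptors, binding proteins and adaptors), 16 were tested in liver and 17 in lung. In liver pairs 1 of the 16 was called and it rose, against 2.58% called among all tested genes. Without pairing none was called in liver, and in lung none was called either way. In liver 7 of the 16 had a positive log2 fold change, and the paired median was -0.13 against 0.01 over all tested genes. The gene called was Insr, the insulin receptor, which also binds IGF2. Insr in liver control stood at 258 (B), 214 (E), 297 (F) and 247 CPM (G), and in GOF at 374, 386, 439 and 465 CPM. The groups did not overlap, which held for 4.81% of all tested genes. The paired log2 fold change was 0.72 ± 0.0937 (adjusted p = 0.00231). The call held with any 1 pair left out. Without pairing the value was 0.72 ± 0.148 and did not pass (adjusted p = 0.162), while DESeq2 called it (adjusted p = 0.000833). In lung Insr averaged 152 ± 25.7 CPM in controls and 144 ± 54.9 CPM in GOF, for a log2 fold change of -0.08 ± 0.257 (adjusted p = 1), and the difference of the effect between the tissues, -0.87 ± 0.201 in pairs, did not pass (adjusted p = 0.09). The binding protein Igfbp4 stood at 717 ± 158 CPM in lung control and 1016 ± 160 in lung GOF, with a log2 fold change of 0.51 ± 0.188 (adjusted p = 1), or 0.52 ± 0.104 in pairs (adjusted p = 0.202).

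Of 13 genes that maintain imprints, 10 were tested and none passed by genotype in either tissue, paired or not. In liver 9 of the 10 had a positive log2 fold change, with a median of 0.30 (0.32 in pairs) against -0.00 (0.01) over all tested genes, and in lung 5 of 10, with a median of 0.01. Trim28, a corepressor that protects imprinted methylation, stood at 186 ± 13.6 CPM in liver control and 209 ± 16.9 in liver GOF (paired log2 fold change 0.17 ± 0.0802, adjusted p = 0.347). Ctcf, the insulator protein that separates Igf2 from the shared enhancers on the maternal copy, stood at 81.3 ± 5.26 and 86.7 ± 9.52 CPM (0.10 ± 0.103, adjusted p = 0.742). Of 4 genes of the postnatal repression of H19 and Afp in mouse liver, 2 were tested. Zbtb20, which encodes a repressor of Afp, stood at 71.1 ± 10.5 and 90.6 ± 19.3 CPM in liver (paired log2 fold change 0.34 ± 0.13, adjusted p = 0.224). Gpc3, a growth-restraining glypican of the same fetal programme, stood at 9.67 ± 8.39 and 3.90 ± 0.487 CPM (-0.95 ± 0.427, adjusted p = 0.316), where control B held 22.1 CPM and the other controls 4.09 to 7.29 CPM. With pair B left out its log2 fold change was -0.43.

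Between the control tissues, 3 of 34 tested other imprinted genes rose in lung and 5 fell, against 24.9% called among all genes. Gatm, the first enzyme of creatine synthesis, stood at 127 ± 90.1 CPM in liver and 1.06 ± 0.313 in lung (log2 fold change -6.89 ± 0.584, adjusted p = 1.8e-05), and Asb4, a ubiquitin ligase adaptor, at 85.7 ± 51.6 and 4.70 ± 1.86 CPM (-4.18 ± 0.552, adjusted p = 0.000306). Snrpn, a splicing protein gene, rose from 6.62 ± 2.2 to 16.8 ± 2.47 CPM in lung (1.35 ± 0.284, adjusted p = 0.00527), and Kcnq1, a potassium channel gene in the Cdkn1c cluster, from 40.1 ± 12.7 to 79.4 ± 13.4 CPM (0.99 ± 0.234, adjusted p = 0.00996). With the block of B, E and F, which drops the G and D libraries, the Kcnq1 call was lost (adjusted p = 0.0501). It held in 12 of 12 unpaired alternatives. Of 15 IGF axis genes 6 rose in lung and 3 fell. Igfbp2 stood at 106 ± 45.5 CPM in lung and 4.31 ± 3.72 in liver (4.61 ± 0.585, adjusted p = 0.000236), and the adaptor Irs1 at 14.5 ± 7.22 and 0.856 ± 0.502 CPM (4.07 ± 0.604, adjusted p = 0.000641). Igfbp4 was lower in lung by -1.34 ± 0.204 (adjusted p = 0.000755). Igfbp1, which hepatocytes secrete, had 748 reads in liver control and 0 in lung control, which makes the liver level at least 226-fold higher when the floor is 3 counts over the lung group. Dnmt3b, a de novo DNA methyltransferase, stood at 12.6 ± 3.17 CPM in liver and 3.41 ± 1.03 in lung (-1.88 ± 0.342, adjusted p = 0.00222), and Gpc3 at 9.67 ± 8.39 and 123 ± 32.9 CPM (3.68 ± 0.512, adjusted p = 0.000437). Other cells in the control sorts also differed. Alveolar type 1 markers summed to 1043 to 3051 CPM in lung and 6.47 to 13.6 in liver, and fibroblast markers to 579 to 1340 and 180 to 1034 CPM. Hepatocyte markers summed to 785 to 3622 CPM in liver and 1.81 to 3.59 in lung. The part of these cells in the differences between tissues was not tested.

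The genes whose pattern over the 16 libraries was most like that of each imprinted growth gene were named by Pearson's r of log2(CPM + 0.5) among 14428 genes, as a description. For H19 they were Tgfb2 (r = 0.936), Lancl2 (0.932) and Ctsk (0.924), and for Igf2r Ptprg (0.938), Glb1l3 (0.920) and Cstf2 (0.908). For Cdkn1c they were Cd9 (0.963), Mfap3l (0.934) and Ptprj (0.927), for Plagl1 B4galt3, Hoxb2 and BC023105 (0.938 to 0.946), and for Mest Pld2, Hoxa2 and Sall2 (0.894 to 0.924). For Grb10 they were Ktn1, 4922501C03Rik and Ogt (0.895 to 0.913), for Meg3 Pcnp, Wac and Cald1 (0.830 to 0.875), for Peg3 Scai, Hnrnpr and Pus7 (0.809 to 0.825), and for Igf2 AI597479, Sult3a1 and Anp32b (0.796 to 0.808). These r values include the difference between tissues. For deviations from the 4 group means r was 0.625 for H19 and Tgfb2, 0.672 for Igf2r and Ptprg, 0.811 for Cdkn1c and Cd9, and 0.816 for Igf2 and AI597479, a gene whose r with Igf2 was 0.883 in the 8 liver libraries and 0.048 in the 8 lung libraries.

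In the authors' deposited table of fold changes the liver log2 fold change was 0.73 for Igf2r, 0.38 for H19 and 0.25 for Grb10. The lung values in the authors' deposited table were -0.48 for Cdkn1c, 0.18 for H19 and -0.10 for Igf2r. Igf2r and Cdkn1c thus had the largest absolute values of these genes in liver and lung there. The order differed in the unpaired fits given above, where H19 had the largest value in both tissues. It was 1.39 ± 0.663 in liver, against 0.82 for Igf2r, and 1.73 ± 1.24 in lung, against -0.61 for Cdkn1c. Why the deposited values differ from these fits was not tested.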

How the data were processed

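RNA of CD31-sorted cells was read as paired ends from TruSeq RNA V2 libraries, per the labels' protocols, and this kit does not mark strand. The build was mm9, and tools named were HTSeq 0.6.1, SAMtools 0.1.19, TopHat2 2.0.11, DESeq2 and Bowtie2 2.2.1, per the submitters' processing notes. Not given in the sources used here are the annotation and whether counting used strand. The authors deposited whole-number read counts per gene, per the file headers and values, and log2 fold changes of their own, quoted in 1 paragraph as the authors' deposited table. A further 16 deposited CPM columns were not used. Entries that repeat a symbol numbered 3401; the sum line was left out.

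Counts were fitted with edgeR 4.0.16 (R 4.3.3, limma 3.58.1; TMM, filterByExpr with minimum count 10 and total 15, prior count 0.125) by the quasi-likelihood test, with Benjamini-Hochberg adjustment over all genes tested and a threshold of 0.05. The comparisons used the 8 libraries of a tissue, the 8 controls, or all 16 for the tissue difference of the effect. CPM used TMM over all 16. The members, gene lists, tests and ratios were chosen with earlier results of these data known. Named genes were the 10 members, up to 4 called genes per list and comparison by smallest adjusted p (otherwise the 2 with the highest CPM, of which some are shown), the 3 most alike genes per member, and Ctnnb1; Airn, and Igfbp4 and Insr where they did not pass, were named after their values were seen.

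Letters were shared between genotypes, with no meaning given in the labels. Deviations of same-letter libraries from their group means correlated across genes at 0.454 (B), 0.395 (E), 0.284 (F) and 0.253 (G) in liver and 0.235 (B), 0.345 (E), 0.354 (F) and 0.218 (D) in lung, with other letters at no more than 0.0843, so they were taken to pair libraries within a tissue. Across tissues the correlation was -0.0645 to 0.118, and the letters were not taken to pair there. Libraries of the same group differed beyond sampling noise (chi-square per degree of freedom at least 49.5). The labels describe 4 biological samples per condition. Alternatives were RLE and upper-quartile scaling, no filter, DESeq2 1.42.0, the replicate block, and each library or pair left out. The scripts were tested on simulated data. Sequences are from RefSeq tables on GRCm38.p6, a build other than mm9.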

Additional observations from a re-analysis of the deposited data

Results flagged for a closer look

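Igf2r in liver control had 1 library, G at 71.7 CPM, far from the other 3, which lay between 56.5 and 57.1 CPM; chance flags about 1 in 20 groups of this size. The Igf2r log2 fold change in lung minus that in liver was -0.93, with GOF higher in 4 of 4 liver pairs and in 1 of 4 lung pairs; Igf2r was chosen on these data, so this is a description. For Grb10, GOF was higher in 4 of 4 liver pairs and lower in 4 of 4 lung pairs, a difference of -0.50 on the log2 scale, likewise a description.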

How the results depend on the processing

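The counts of genes called moved with the method. In liver 5 genes were called, against 3 with upper-quartile scaling, 27 with no filter on low counts, 150 by DESeq2, 401 with the replicate block (paired), and 1 to 12 with 1 library left out (12 without GOF E, 3 without GOF F, 1 without GOF G, and 1, 1 and 3 without controls E, F and G). In lung 0 became 11 by DESeq2, 3 with the replicate block, and 0 to 1 with 1 library left out (1 without GOF B). For the tissue difference 1 became 47 by DESeq2, 86 with the replicate block, and 1 to 3 with 1 library left out (2 without liver control E or lung GOF E, 3 without liver GOF E). Between control tissues 3940 became 2104 with a replicate block of B, E and F; RLE scaling gave counts within 1.5 times in every comparison. Of 612 alternative log2 fold changes of the imprinted growth genes, 608 moved by less than 1 SD of the replicates. The 4 others were Meg3 in liver with pair F (0.56) or G (0.40) left out and H19 in lung with pair B (2.52) or F (3.45) left out. Rescaling or leaving out 1 library seldom moves a value by 1 SD, so this count does not show that directions are stable. The sign held in 17 of 17 alternatives for Igf2r in each tissue. It held in only 12 of 17 for Peg3 in lung, and in 13 of 17 for Cdkn1c in liver and Meg3 in lung. All 80 alternative CPM means moved by less than 1 SD. Depth limits H19 in lung, with 63 and 235 reads a group. Dlk1 had no read in any library, and the part of the annotation used for counting in that was not tested. Among the imprinted growth genes counted as called in liver pairs, H19 left the count with pair B or F left out, and between control tissues H19, Mest and Plagl1 left it with the block of B, E and F. That block drops the G and D libraries, and letters were not taken to pair across tissues. H19, Mest and Plagl1 were each called in 12 of 12 unpaired alternatives between control tissues.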
